A study of Mus musculus with 5 samples.

Results

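The 33 genes described here encode enzymes that make nucleotides, serine and the one-carbon units that link these routes. They were chosen by gene symbol, not by any measured value, and all 33 were found among the 11352 genes of the authors' deposited RNA-seq table. The table holds 5 libraries of mouse haematopoietic stem and progenitor cells (HSPCs), sorted by flow cytometry as KIT-positive and SCA1-positive cells without lineage markers or CD135. Of these, 2 libraries came from mice with the genotype Cux1-knockdown (Cux1-low) and 3 from mice with the genotype Cux1-knockdown;NrasG12D, called the NrasG12D libraries here. All 5 therefore carry the Cux1 knockdown, and all mice had been given doxycycline and pI:C, an RNA duplex that sets off an interferon response, for 4 weeks. CUX1 binds DNA and regulates transcription, and the Nras allele encodes an activated RAS GTPase. The comparison asks what the Nras allele adds to cells in which Cux1 is already reduced. Cells with unreduced Cux1, with or without the Nras allele, were not analysed here. The age and strain of the mice, the promoters behind the knockdown and the allele, and whether the libraries are from different mice are not given in the sources used here. The p-values measure the spread between these libraries, part of which may be technical.

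Purine rings are built step by step on phosphoribosyl pyrophosphate (PRPP) up to inosine monophosphate (IMP), from which AMP and GMP branch off. Pyrimidine rings are built first and joined to PRPP afterwards. Ribonucleotide reductase turns ribonucleotides into the deoxynucleotides needed for DNA, and folate carries the one-carbon units, largely taken from serine, that enter the purine ring and thymidylate. Most long-term stem cells are quiescent and draw little on these routes, while dividing progenitors draw on them heavily.

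Levels are normalized CPM, that is, CPM after a scaling by the authors. The libraries held 16489711 to 20262498 reads over the listed genes, and the least covered of the 33 genes still had 300 to 499 reads per library. Against the labelled sort, Kit, which encodes KIT, had levels of 1359 and 1373 (Cux1-low libraries 1 and 2) against 477, 569 and 816 (NrasG12D libraries 1 to 3), and 6 of 12 lineage and sort-negative markers, Cd3e and Ly6g among them, were not listed. Flt3, which encodes the CD135 that the sort excluded, was nevertheless present at 326 and 388 against 196, 165 and 229.7. Within its group, NrasG12D library 3 was the one that differed. The summed level of 14 HSPC markers, all measured, was 4699 and 4920 in the Cux1-low libraries against 2556, 2374 and 3697, so library 3 lay between. That of 13 erythroid markers, with the 4 globin genes searched not listed, was 5097 and 5624 against 8877, 12480 and 6283, again with library 3 nearest to Cux1-low. For 8 B cell markers (Pax5, Rag1 and Cd22 not listed) the sums were 58.1 and 79.4 against 269, 551 and 60.5. For 10 granulocyte and monocyte markers (S100a8 and S100a9 not listed) they were 8113 and 11312 against 20551, 13790 and 8785. In these last 2 lists library 3 fell within the Cux1-low range. The part of other cell types in the results below was not tested. In sorted cells read in bulk, fewer cells of a type and less RNA per cell cannot be told apart. For the 33 genes, counts past the threshold are given with and without library 3.

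As a group the synthesis genes lay higher in the NrasG12D libraries, by small amounts. The fitted log2 fold change was positive for 30 of 33 genes, against 49.7% of all genes, and its median was 0.28, against -0.003 over all genes. Only Mthfd2, which encodes a mitochondrial folate enzyme, passed the test, and 32 genes did not (limma on log2 values with a pseudocount of 1, adjusted p under 0.05 over 11352 genes). Of all genes, 0.255% rose by that rule and 0.872% fell. At an unadjusted p under 0.05, 17 of the 33 genes were higher and 0 lower, where 14.8% of all genes were higher and 16.5% lower. For 25 of the 33 genes every NrasG12D library lay above both Cux1-low libraries, and for 1, Impdh1, every one lay below; over all genes these shares were 26.5% and 27.0%.

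**Figure D1:**
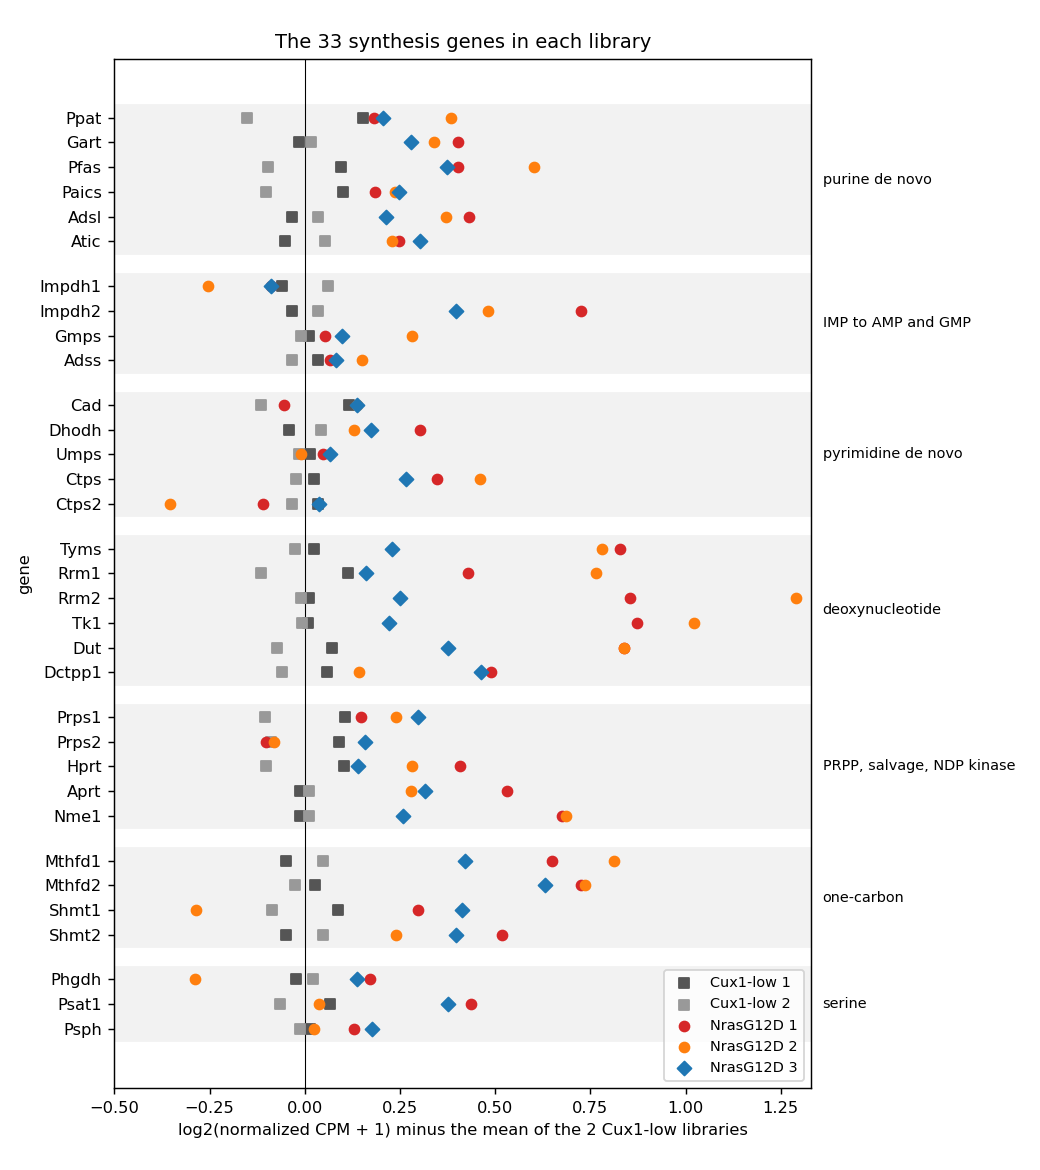
Level of each of the 33 genes in each library, as log2(normalized CPM + 1) minus the mean of the 2 Cux1-low libraries, grouped by role. Squares are Cux1-low libraries, circles NrasG12D libraries 1 and 2, and diamonds NrasG12D library 3; the deoxynucleotide genes reach farthest to the right in libraries 1 and 2, with library 3 nearer to 0 for all of them but Dctpp1.

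The mitochondrial one-carbon gene Mthfd2 (chromosome 6, 83305691 to 83325908, minus strand, mm10) showed the tightest separation. MTHFD2 is a bifunctional dehydrogenase and cyclohydrolase that oxidises the folate-bound unit released from serine. Cux1-low libraries 1 and 2 held 36.8 and 35.5 normalized CPM, and NrasG12D libraries 1 to 3 held 60.4, 60.9 and 56.5, an order kept for all values below. The groups did not overlap, and library 3 lay close to libraries 1 and 2. The level rose 1.64-fold (log2 fold change 0.70, SE 0.11, limma adjusted p = 0.0498), from 36.1 ± 0.948 (SD, n = 2) to 59.3 ± 2.40 (SD, n = 3). This adjusted p is just under the threshold. It was above 0.05 under 9 of 14 alternatives, among them leaving out any 1 library other than NrasG12D library 3 (adjusted p = 0.0935 to 0.400), while the log2 fold change stayed between 0.63 and 0.73 in the fits run.

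As the gene that passed, Mthfd2 is shown with the stretch just upstream of its RefSeq start, which lies inside the GENCODE span given above because that span takes in a longer alternative transcript (GRCm38.p6, chr6:83317609-83317724, minus strand, RefSeq), in which capitals mark 3 copies of the CCAAT box, read as CCAAT or, on the other strand, ATTGG.
Mthfd2: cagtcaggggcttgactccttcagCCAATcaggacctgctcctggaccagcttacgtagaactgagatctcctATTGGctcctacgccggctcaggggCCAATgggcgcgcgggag
A CCAAT box on either strand was found in 15 of the 31 synthesis genes with a promoter window, 250 bases before to 50 after the start, and in 43.2% of the 8724 listed genes with one. The letters TGATGNAA, a form of the C/EBP-ATF site bound by ATF4, were in the window of 1 synthesis gene, Prps1, and of 2.56% of listed genes.

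Mthfd1, the cytosolic enzyme with 3 folate activities in one chain, was at 395 and 422 normalized CPM against 641, 717 and 547. Again the groups did not overlap. The ratio of means was 1.55, short of the threshold (log2 fold change 0.63, SE 0.14, limma adjusted p = 0.0659). Shmt2, the mitochondrial hydroxymethyltransferase that takes the one-carbon unit from serine, was at 275 and 294 against 408, 337 and 375 (log2 fold change 0.39, limma adjusted p = 0.0929), again without overlap. Its cytosolic counterpart Shmt1 was at 126 and 112 against 146, 97.1 and 158, so the groups overlapped. The 95% interval of its log2 fold change, -0.36 to 0.64, covers both directions.

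The 3 serine synthesis genes, which divert a glycolytic intermediate to serine, did not pass. Phgdh, the first enzyme of the route, was at 100.004 and 103 against 115, 83.0 and 112 (log2 fold change 0.0074, 95% interval -0.37 to 0.38). Its sign turned with the scaling of the libraries. Psat1, the aminotransferase, was at 171 and 156 against 222, 168 and 213 (log2 fold change 0.28, limma adjusted p = 0.220). Psph, the phosphatase of the last step, was at 60.8 and 59.7 against 66.1, 61.3 and 68.3 (log2 fold change 0.11). NrasG12D library 2 was the lowest of its group for all 3, and below both Cux1-low libraries for Phgdh. Phgdh carries a further limit: 89.5% of its transcript has near-identical sequence in 11 other annotated genes, so reads may be lost to, or gained from, those copies. For Psph the share is 26.1%, in Cct6a, whose exons overlap it.

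The deoxynucleotide genes had the largest median of the 7 roles. All 6 had every NrasG12D library above both Cux1-low libraries, that median log2 fold change was 0.65, and 0 of 6 passed. Rrm2, the radical-bearing subunit of ribonucleotide reductase whose level follows S phase, had the largest log2 fold change of the 33 genes. It was at 263 and 259 normalized CPM against 473, 640.4 and 311, with a ratio of means of 1.82 (log2 fold change 0.80, SE 0.27, limma adjusted p = 0.113). The Cux1-low libraries were nearly equal, whereas the NrasG12D libraries spread widely and library 3 was the lowest of them. Of the Rrm2 transcript, 27.9% has near-identical sequence in Gm48455 and Gm48445.

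Tk1, which phosphorylates thymidine in S phase, was at 96.6 and 95.5 against 177, 196 and 112 (log2 fold change 0.71, limma adjusted p = 0.103). Dut, which clears dUTP and supplies dUMP, was at 212 and 192 against 361, 362 and 262 (log2 fold change 0.68, limma adjusted p = 0.0727). Tyms, which methylates dUMP to thymidylate, was at 112 and 108 against 197, 190.2 and 129.5 (log2 fold change 0.61, limma adjusted p = 0.0951). In each of these, libraries 1 and 2 stood together and library 3 lay nearer to the Cux1-low pair. Rrm1, the large reductase subunit, was at 735 and 627 against 914, 1153 and 759 (log2 fold change 0.45, limma adjusted p = 0.154), with library 3 only just above Cux1-low library 1. Dctpp1, which hydrolyses dCTP, was at 74.4 and 68.4 against 101, 78.9 and 98.8 (log2 fold change 0.37, limma adjusted p = 0.136). It broke the order of the others: library 3 was close to library 1, and library 2 was the low one.

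Of the 6 genes of de novo purine synthesis up to IMP, all 6 had every NrasG12D library above both Cux1-low libraries, with log2 fold changes of 0.22 to 0.46 and a median of 0.30. None of the 6 passed; 4 had an unadjusted p under 0.05. Gart, which carries 3 activities of the route, was at 341 and 348 normalized CPM against 456, 436 and 419 (log2 fold change 0.34, SE 0.10, limma adjusted p = 0.0870). Pfas, the amidotransferase that follows, was at 47.9 and 41.8 against 59.5, 68.5 and 58.3 (log2 fold change 0.46, SE 0.13, limma adjusted p = 0.0885). Adsl, which acts both here and on the way to AMP, was at 253 and 266 against 349.9, 336 and 301 (log2 fold change 0.34, limma adjusted p = 0.1003). For these 3 genes library 3 was the lowest of the NrasG12D libraries, but stood clear of both Cux1-low libraries.

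Atic, which closes the ring to IMP, was at 54.0 and 58.1 against 66.7, 65.9 and 69.4 (log2 fold change 0.26, limma adjusted p = 0.157). Ppat, the committed step from PRPP, was at 196 and 159 against 201, 231 and 204, and Paics, which joins 2 later steps in one protein, was at 426 and 370.5 against 452, 469 and 472. For both, Cux1-low library 1 came close to the NrasG12D libraries, and the log2 fold changes were 0.26 and 0.22 (limma adjusted p = 0.217 and 0.198). Ppat and Paics sit head to head on chromosome 5 (76913249 to 76951578, minus strand, and 76951307 to 76967509, plus strand), and their first exons overlap. Without strand information, reads from that overlap cannot be assigned to either gene. The same limit holds for Gart, whose exons overlap those of Gm15964 on the other strand over 1014 bases.

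Past IMP the 2 dehydrogenase genes of the GMP branch went opposite ways in every NrasG12D library. Impdh2 was at 14.7 and 15.5 normalized CPM against 25.6, 21.5 and 20.2 (log2 fold change 0.54, SE 0.16, limma adjusted p = 0.0951). Impdh1 was at 175 and 190.5 against 172, 153 and 172 (log2 fold change -0.14, SE 0.11, limma adjusted p = 0.378), with libraries 1 and 3 just under Cux1-low library 1. Neither passed. The low level of Impdh2 needs care: 83.2% of its transcript has near-identical sequence in the annotated pseudogene Impdh2-ps, which is not in the table, so reads may have been lost between them. Gmps, which makes GMP, was at 167 and 164 against 172, 201 and 177, and Adss, which starts the AMP branch, at 162 and 155 against 166, 176 and 168. Both had non-overlapping groups, though the log2 fold changes were only 0.14 and 0.10.

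The pyrimidine ring genes had the smallest median, 0.07, and 0 of 5 passed. Cad, the trifunctional enzyme that begins the route, was at 344 and 293 normalized CPM against 305, 349 and 349 (log2 fold change 0.07, 95% interval -0.21 to 0.36). Umps, which makes UMP, was at 317 and 310.4 against 324, 312 and 329 (log2 fold change 0.04, 95% interval -0.19 to 0.26). The groups overlapped for both, and each interval leaves out a change of 1.5-fold. Dhodh, the mitochondrial dehydrogenase between them, was at 84.6 and 89.8 against 108, 95.4 and 98.4 (log2 fold change 0.20, limma adjusted p = 0.242). The CTP synthase genes diverged: Ctps was at 104 and 101 against 131, 141 and 123 (log2 fold change 0.36, limma adjusted p = 0.0906). Ctps2 was at 134 and 128 against 121, 102 and 134, with overlapping groups and a log2 fold change of -0.14.

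Among the genes that supply and recycle nucleotides, Nme1, a nucleoside diphosphate kinase, was at 244 and 248 against 393, 395 and 294 (log2 fold change 0.54, SE 0.15, limma adjusted p = 0.0846). A readthrough gene, Gm20390, shares exons with it, which adds uncertainty to this level. Aprt, which salvages adenine, was at 83.7 and 85.1 against 122, 103 and 105 (log2 fold change 0.38, limma adjusted p = 0.0977). Hprt, which salvages hypoxanthine and guanine, was at 275 and 238 against 339, 311 and 282 (log2 fold change 0.28, limma adjusted p = 0.175). In all 3 the groups did not overlap, but for Hprt the gap between library 3 and Cux1-low library 1 was small. The PRPP synthetase genes differed: Prps1 was at 131 and 113 against 135, 144 and 149.6 (log2 fold change 0.23), whereas Prps2 was at 120.3 and 106 against 105, 107 and 126, with a log2 fold change, -0.0078, whose sign turned when libraries were left out or scaled to equal medians.

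**Figure D2:**
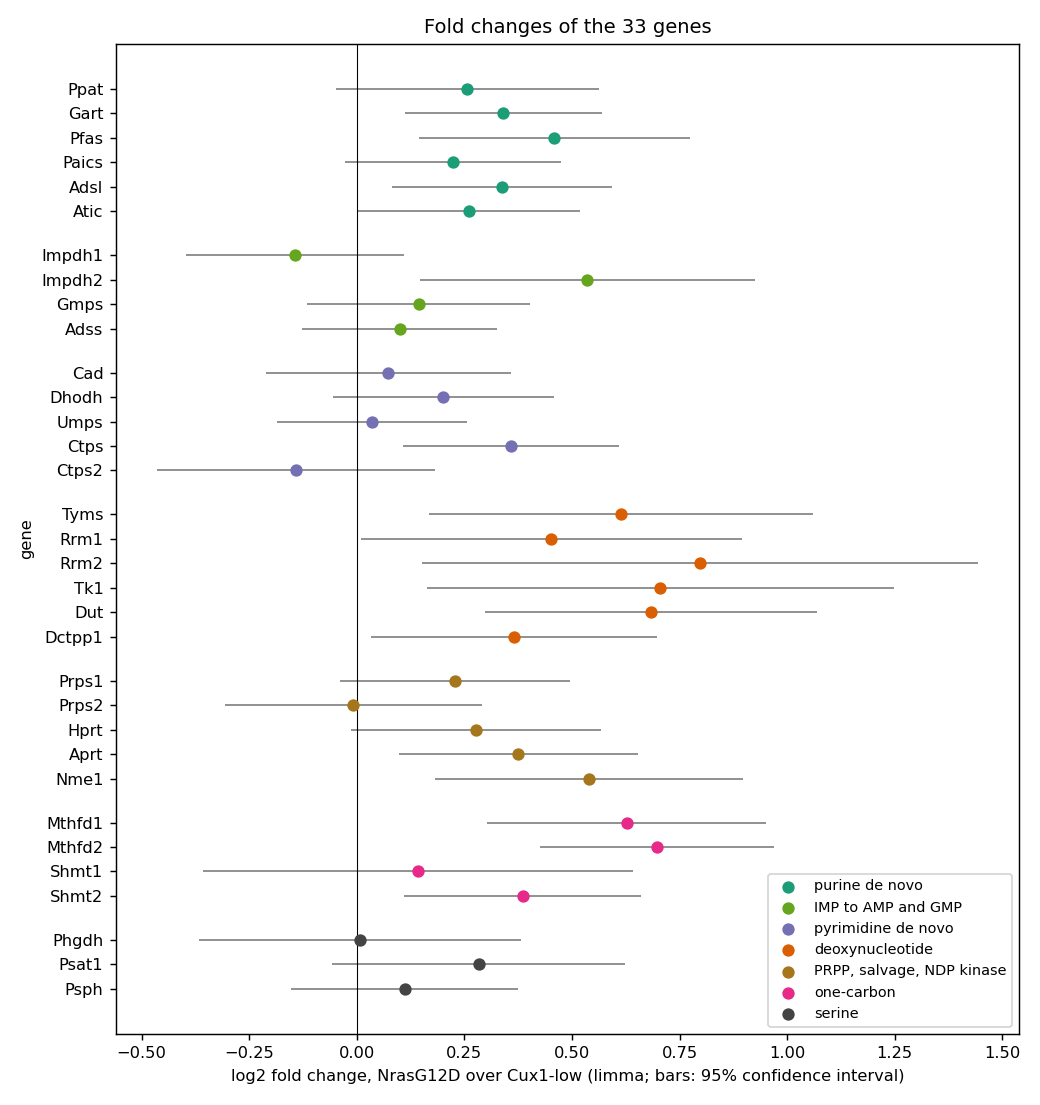
Log2 fold change of each gene, NrasG12D over Cux1-low, on the log2(normalized CPM + 1) scale, with its 95% confidence interval from limma and coloured by role. The largest values are those of Rrm2 (0.80), Tk1 (0.71) and Mthfd2 (0.70), and Mthfd2 has the narrowest interval of the 3.

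Per kilobase of transcript, Hprt and Rrm1 were the most abundant of the 33 mRNAs in the Cux1-low libraries (199 and 170 normalized CPM per kb), followed by Paics (161). Pfas (7.04), Impdh2 (8.12) and Mthfd2 (17.3) were the lowest. In the NrasG12D libraries Hprt and Rrm1 again led (241 and 236), with Rrm2 (216) after them. Pfas (9.74), Impdh2 (12.1) and Gmps (22.6) were then lowest. These levels use 1 principal transcript per gene and carry the error of that choice. For Impdh2 the rank also carries the limit given above, that reads may have been lost to Impdh2-ps.

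Ratios between paired enzymes depend little on how a library was scaled; they were taken from values with the pseudocount of 1 added, which pulls the ratios of the low gene Impdh2 towards 0. On the log2 scale the ratio of Impdh2 to Impdh1 was -3.49 and -3.54 in the Cux1-low libraries against -2.70, -2.78 and -3.03, a difference of 0.68. The size of that ratio also depends on any reads of Impdh2 lost to Impdh2-ps. The ratio of Ctps to Ctps2 was -0.36 and -0.34 against 0.11, 0.47 and -0.12, a difference of 0.50. The ratio of Prps1 to Prps2 was 0.12 and 0.09 against 0.35, 0.43 and 0.24, a difference of 0.24. In these 3 pairs every NrasG12D library lay above both Cux1-low libraries. For Shmt2 to Shmt1, Mthfd2 to Mthfd1, Rrm2 to Rrm1 and Hprt to Ppat the groups overlapped, with differences of 0.24, 0.07, 0.35 and 0.02. With 3 libraries against 2 the exact permutation test (2-sided) cannot go below 0.2, the value it gave for the first 3 pairs, and the adjusted value over 7 pairs was 0.467, so none passed.

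**Figure D3:**
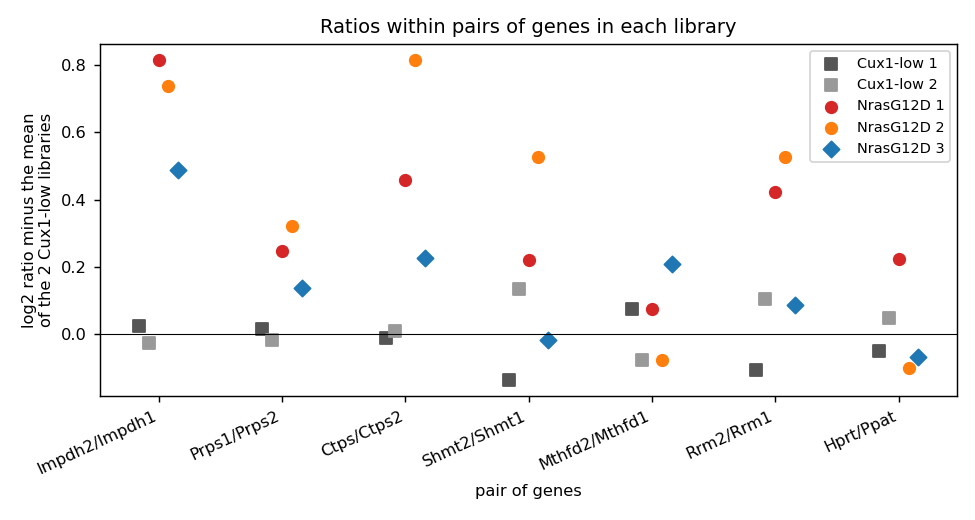
Log2 ratio of the levels of 2 genes in each library, minus its mean over the 2 Cux1-low libraries, for 7 pairs of genes. For Impdh2/Impdh1, Prps1/Prps2 and Ctps/Ctps2 all 3 NrasG12D libraries lie above both Cux1-low libraries, by 0.68, 0.24 and 0.50 on average.

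The synthesis genes differed in where NrasG12D library 3 lay. Without that library, 16 of the 33 genes rose and 0 fell (limma adjusted p under 0.05), where 18.0% of all genes rose and 19.4% fell. They were Gart, Pfas, Adsl, Impdh2, Ctps, Tyms, Rrm1, Rrm2, Tk1, Dut, Hprt, Aprt, Nme1, Mthfd1, Mthfd2 and Shmt2. Library 3 took no part in that choice, but the Cux1-low libraries did, and the choice can by itself favour genes low in them. In library 3 all 16 lay above both Cux1-low libraries. So did 84.7% of the 2043 genes of the whole table that rose in the same fit.

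The size differed by role. On a scale where 0 is the Cux1-low mean and 1 the mean of NrasG12D libraries 1 and 2, in log2 values, library 3 had a median position of 0.55 over the 16 genes and 0.41 over the 2043. The 5 deoxynucleotide genes among them had positions of 0.23 to 0.45 with a median of 0.27. The 3 purine ring genes had positions of 0.53 to 0.76 with a median of 0.74, and the 3 one-carbon genes 0.58 to 1.05 with a median of 0.86. All 5 deoxynucleotide positions lay below all 6 purine ring and one-carbon positions, but the roles did not separate throughout. The 3 salvage and kinase genes ran from 0.38 (Nme1) and 0.40 (Hprt), inside the deoxynucleotide range, to 0.78 (Aprt), and Impdh2 and Ctps were both at 0.66. The other deoxynucleotide gene, Dctpp1, did not pass in that fit and had a position of 1.47. S phase markers that rose without library 3 (15 genes) had a median of 0.35 and G2/M markers (15 genes) 0.26, while ribosome biogenesis genes (12) had 0.81. Erythroid markers (12) had 0.34 and B cell markers (8) 0.06. The Cux1-low libraries and NrasG12D libraries 1 and 2 served both to choose and to place these genes. That choice can by itself put the left-out library 3 below 1, more so for genes with more spread. The part of cell division in these positions was not tested, and genes of one library are not replicates, so these positions are a description.

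**Figure D4:**
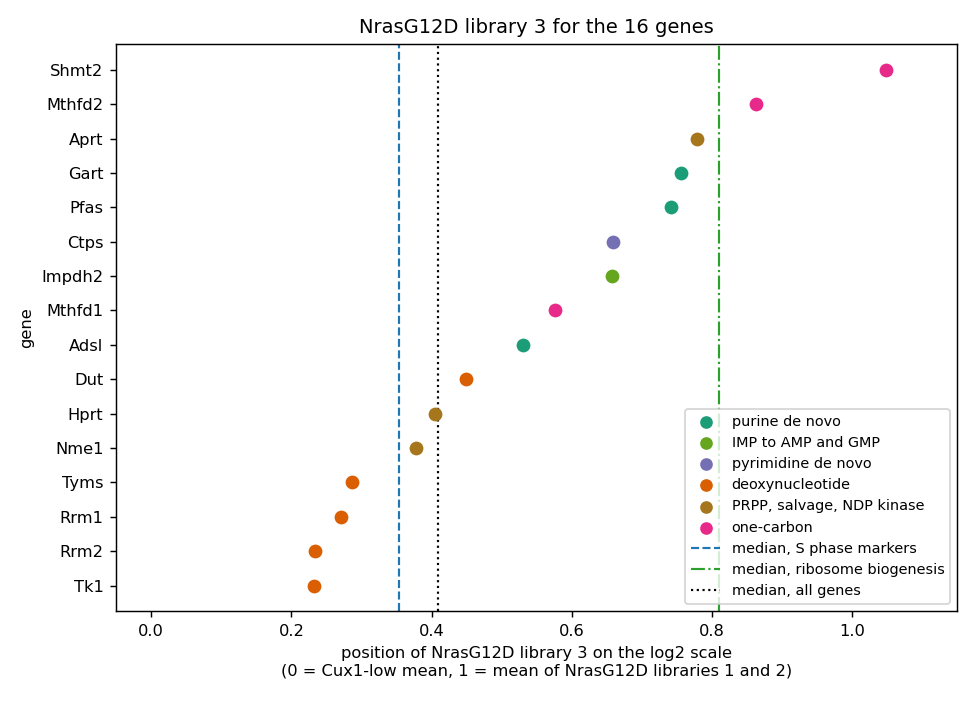
Position of NrasG12D library 3 between the Cux1-low mean (0) and the mean of NrasG12D libraries 1 and 2 (1), on the log2 scale, for the 16 genes that rose without it, coloured by role. Vertical lines are medians over S phase markers (0.35), ribosome biogenesis genes (0.81) and all genes (0.41) that rose in the same fit; the deoxynucleotide genes lie at 0.23 to 0.45 and the one-carbon genes at 0.58 to 1.05.

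Sums over each role showed library 3 as the lowest NrasG12D library in 4 of the 7 roles. The deoxynucleotide genes reached 156%, 184% and 118% of their Cux1-low mean in NrasG12D libraries 1, 2 and 3, while the Cux1-low libraries were at 105% and 94.98%. The one-carbon genes reached 148%, 143% and 134%, and the purine ring genes 124%, 125% and 119%. The PRPP, salvage and kinase genes, at 133%, 129% and 116%, also had library 3 lowest. In the serine genes, at 124%, 95.9% and 121%, library 2 was the low one, and the IMP branch genes were at 102%, 106% and 103%. The pyrimidine genes were at 104%, 105% and 109%, close to the 103% and 96.7% of the Cux1-low libraries. Beside these, S phase markers were at 129.9%, 146% and 117%, G2/M markers at 153%, 173% and 115%, and ribosome biogenesis genes at 134%, 132% and 125%.

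**Figure D5:**
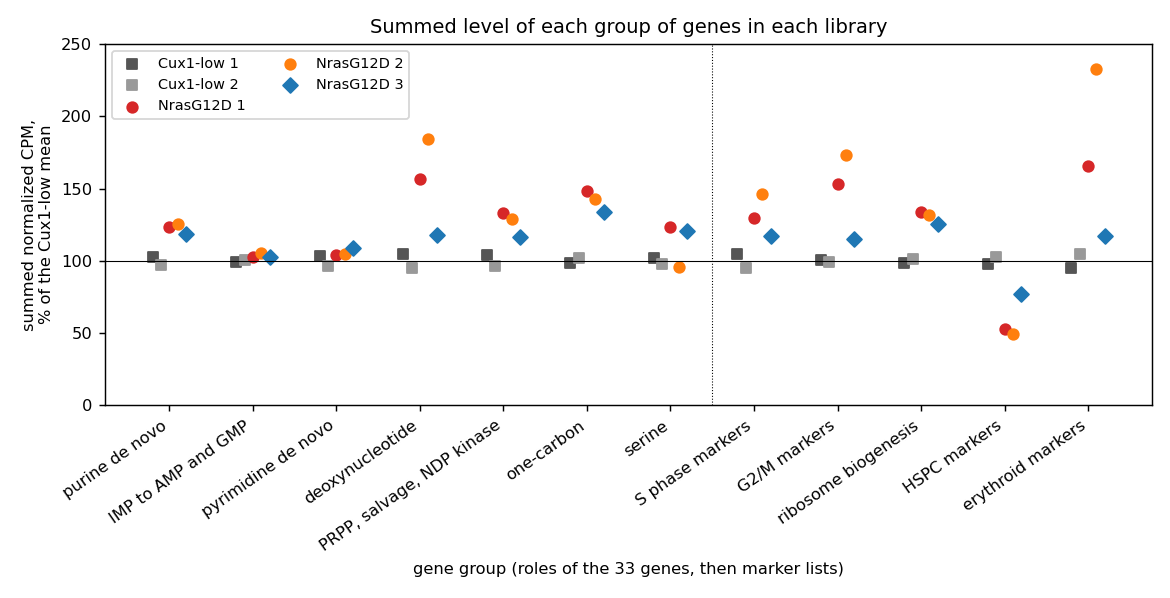
Summed normalized CPM of each role of the 33 genes and, right of the dotted line, of 5 marker lists, in each library as a percentage of the mean of the 2 Cux1-low libraries. One-carbon genes stand at 134% to 148% in the NrasG12D libraries, deoxynucleotide genes at 118% to 184%, and pyrimidine genes at 104% to 109%.

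In the authors' deposited table, made with its own model of the same 5 libraries, 8 of the 33 genes had an adjusted p under 0.05 and a positive fold change, where 6.97% of all genes did, and 0 had a negative one, where 9.14% did. In the authors' deposited table these were Mthfd2 (log2 fold change 0.71), Mthfd1 (0.64), Dut (0.70), Nme1 (0.55), Tyms (0.64), Tk1 (0.75), Rrm2 (0.86) and Pfas (0.47). The signs of all 33 were the same there as in the limma fit.

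Genes around these routes were less uniform, and none passed with library 3 included. Without NrasG12D library 3, 18.0% of all genes rose and 19.4% fell (limma adjusted p under 0.05). In that fit 8 of the purine genes below rose and 5 fell, and 2 of the pyrimidine genes rose and 1 fell. Of the deoxynucleotide, folate and glycine lists below, 3 genes each rose, and 1, 2 and 2 fell. Of 21 purine interconversion and salvage genes, 11 were higher and 10 lower (median 0.07). Ak4 and Ak1, adenylate kinases, had lower values (28.2 and 23.8 against 12.8, 8.16 and 12.7, and 10.6 and 8.95 against 4.31, 5.71 and 5.41). Of 12 pyrimidine salvage and kinase genes 8 were higher (median 0.08). The kinase gene Nme3 had a log2 fold change of 0.83 and Upp1, which splits uridine, of -2.10 (18.3 and 21.2 against 2.36, 2.05 and 10.02 normalized CPM). Of 11 genes of deoxynucleotide salvage and clearance 4 were higher and 7 lower (median -0.12), with Nt5c at 0.39 and the mitochondrial thymidine kinase gene Tk2 at -0.40. Of 13 folate genes 7 were higher and 6 lower (median 0.10). Fpgs, which traps folate in the cell, had a log2 fold change of 0.41. Of 17 genes of glycine cleavage, the methionine cycle and serine use 10 were higher (median 0.08). Ahcy, which clears S-adenosylhomocysteine, had a log2 fold change of 1.09 from a low level and Sfxn1, the mitochondrial serine carrier, of 0.51 (limma adjusted p = 0.0549 and 0.0757). Near-identical copies of Ahcy were not searched for, so reads lost to such copies were not tested.

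Lists for growth and division gave more uniform signs. All 20 S phase markers, all 15 G2/M markers and all 20 ribosome biogenesis genes were higher, with medians of 0.45, 0.54 and 0.34, and none passed. Their smallest p-values were those of Prim1 and Mcm7 in S phase (log2 fold changes 0.46 and 0.44), Mki67 and Cdk1 in G2/M (0.75 and 0.64), and Nop58 and Npm1 in ribosome biogenesis (0.50 and 0.51). Of 15 glycolysis genes 9 were higher, where 49.7% of all genes were, and the median was 0.12. Of these genes 1 passed, Ldhb, which fell, as 0.872% of all genes did by that rule. Without library 3, 0 glycolysis genes rose and 2 fell, where 18.0% of all genes rose and 19.4% fell. The median of 0.28 for the synthesis genes lay between those of glycolysis and ribosome biogenesis, and the deoxynucleotide median of 0.65 above all 4. No test of these differences between lists was made.

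Promoter windows were searched for motifs of factors known to act on these genes. The letters CACGTG, the E-box that MYC binds, were found in the windows of 5 of 31 synthesis genes and of 12.05% of the 8724 listed genes with a window. A match describes letters, not a bound site. The copies are shown only to give the letters around each match. Of the 5 genes, 3 were among the 16 genes above, where 16 of all 33 were. Each is given with 10 bases on either side, from RefSeq on GRCm38.p6, capitals marking the E-box.
Atic (chr1:71557139-71557164, plus strand): acctcggggtCACGTGgggtcgacac
Paics (chr5:76951089-76951114, plus strand): cctcggaaagCACGTGgagggacctg
Impdh2 (chr9:108560316-108560341, plus strand): gctcgataagCACGTGgttacccagc
Nme1 (chr11:93968275-93968300, minus strand): tgcggggaacCACGTGaggccgggga
Tyms (chr5:30073671-30073696, minus strand): ccacttctgtCACGTGggggcggggt
A second Nme1 window, for another start, held a further copy. These letters are palindromic, so both strands read alike.

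A core of the E2F site, searched on either strand as TTCCCGC, then with its middle letters changed as TTGGCGC, likewise as TTCGCGC, and lastly as TTGCCGC, was in the windows of 14 of 31 synthesis genes and of 20.0% of listed genes with a window. This shorter core was chosen after a longer one had been seen: with a further T in front it was in 2, Ppat and Prps2, and in 4.87% of listed genes. The share thus turned on the length of the motif searched. The copies in the reductase gene Rrm1 and the folate gene Mthfd1 are shown as members of the 2 roles with the largest medians, with the core in capitals.
Rrm1 (chr7:102441618-102441644, plus strand): ggagaactcgTTCCCGCcaggtccgct
Mthfd1 (chr12:76255169-76255195, plus strand): taaaagcgagGCGGGAAgctcccggct
In the Mthfd1 window shown the core reads on the other strand. Dut and Tk1, next to Rrm2 in log2 fold change among the deoxynucleotide genes, held neither motif in these windows, which says nothing of sites elsewhere.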

How the data were processed

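The RNA was polyadenylated, extracted with Trizol and made into libraries with Illumina's TruSEQ v2 kit, per the labels' protocols. Per the submitters' processing notes, TopHat, HTSeq and edgeR were used, with no version or role stated; hg19 and mm10 are listed as builds. The deposited signal values are headed CPM per the file headers, but the columns sum to 971746 to 1026780, so the authors had scaled them. The authors' deposited table also gives log2 fold changes, a likelihood ratio score, and p-values per gene. Every gene in it is above 1 in at least 3 libraries, and all 33 genes passed the filter used here. Values were whole multiples of 1 step per library (within 0.1 of a step), which gave the read numbers; these were used for depth only. All 10 pairs of libraries differed beyond sampling noise (chi-square test).

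Groups follow the labelled genotype. The test was limma 3.58.1 (R 4.3.3) with a trended variance on log2(value + 1), 3 against 2 libraries, for genes of at least 1 in at least 2 libraries (0 of 11352 removed), adjusted by Benjamini-Hochberg; such fold changes understate those of low genes. The fit was tested on simulated data. Coordinates and transcript lengths are from GENCODE M21 (mm10). Near-identical sequence means at least 95% identity over at least 100 bases of another gene's transcript. The sources used here do not say whether counting used strand. The 33 genes, the lists and the tests were chosen with earlier results of these data known. All 33 genes are named, and from each related list the genes past the threshold, up to 3, or otherwise the 2 with the smallest p. Some genes that this rule would name are not reported here. Other steps used Python 3.11.15 with scipy 1.17.1, pandas 2.3.3, numpy 2.4.6 and, for plots, matplotlib 3.10.9.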

Additional observations from a re-analysis of the deposited data

How the results depend on the processing

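Under the alternatives run, 28 to 31 of the 33 genes had a positive sign, and their median log2 fold change was 0.22 to 0.34. Groups did not overlap for 26 of the 33 genes and 53.5% of all genes. In alternatives added after seeing the data this became 20 genes and 53.3% with equal totals, and 26 to 30 genes and 58.6% to 73.4% with 1 library left out, which makes overlap rarer for any gene. The number past the threshold moved: from 1 (Mthfd2) it went to 0 with pseudocounts of 0.1 and 0.5, with a minimum of 5 in 2 libraries, with a constant prior variance and with robust estimation. Leaving out 1 library gave 0 to 16: 0 without any of the first 2 libraries of either group, and 16 without NrasG12D library 3. Over all genes 128 passed, 213 with each library rescaled to the same total, and 3 to 4243 with 1 library left out. With the replicate number as a block, 16 of the 33 and 4163 of all genes passed, but NrasG12D library 3 has no partner and adds nothing to that fit. The labels do not say that the numbers pair libraries, and deviations of same-numbered libraries had correlations of -0.19 and -0.0035. Signs turned for values near 0. With equal totals Umps was at -0.029 and Phgdh at -0.056; with equal medians Prps2 was at 0.0042; with the block Phgdh was at -0.058. With 1 library left out, Cad ranged from -0.043 to 0.19, Prps2 from -0.097 to 0.081 and Phgdh from -0.075 to 0.15. Log2 ratios then ranged from -0.0039 to 0.15 for Mthfd2 to Mthfd1 and from -0.083 to 0.079 for Hprt to Ppat. The causes were not tested. Tests on read counts (edgeR and DESeq2) were not run. The least covered of the 33 genes had 300 to 499 reads per library.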

Other observations

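Regulators of these routes differed among themselves. Myc, chosen after its values were seen, was at 653 and 755 normalized CPM (Cux1-low libraries 1 and 2) against 659, 533 and 565 (NrasG12D libraries 1 to 3), with overlapping groups (log2 fold change -0.27, limma adjusted p = 0.212). E2f1, a regulator of S phase genes, was at 77.9 and 65.5 against 118, 116 and 105 (log2 fold change 0.66, limma adjusted p = 0.0542). Atf4, which drives serine and one-carbon genes under amino acid stress, was at 188 and 183 against 253, 236 and 247 (log2 fold change 0.40, limma adjusted p = 0.0726). For E2f1 and Atf4 the groups did not overlap, and neither passed. Of 13 regulators 9 were higher, with a median of 0.19, and none passed. Of 14 measured ATF4 targets outside serine synthesis 12 were higher (median 0.25) and none passed. Asns, the asparagine synthetase gene, was at 128 and 123 against 248, 318 and 165, while Trib3, a feedback regulator, was at 9.71 and 9.96 against 2.97, 2.68 and 4.37. Outside these routes, 9 of 10 megakaryocyte markers had a negative log2 fold change (median -0.27), with Vwf at 83.0 and 59.8 against 37.7, 42.2 and 38.2. The summed level of the 10 was 1014.5 and 1004 against 762, 622 and 1120, so NrasG12D library 3 lay above both Cux1-low libraries. Of 4 endothelial and stromal markers 2 were lower. None of these markers passed. Without library 3, 4 megakaryocyte markers and 1 endothelial and stromal marker fell, and 0 rose (limma adjusted p under 0.05). In that fit 5 regulators rose and 1 fell, and 5 of the ATF4 targets rose and 2 fell. Over all genes 18.0% rose and 19.4% fell.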
